A study of Mus musculus with 8 samples.

Results

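Arterial endothelial cells line the vessels that carry blood towards the capillary bed. In the deposited counts they were taken as the cells that met 4 conditions on raw UMIs, the unique molecular identifiers that mark each captured transcript. The sum of the endothelial genes Cdh5 and Cldn5 was at least 2, the leukocyte gene Ptprc was at 0, the sum of the arterial genes Gja5, Bmx and Dkk2 was at least 2, and the lymphatic genes Mmrn1 and Prox1 were at 0. This gave 60 arterial cells, which is 0.508% of the 11806 cells in the table (0.388 to 0.654) and 10.97% of the 547 endothelial-gated cells, those that met the conditions on Cdh5, Cldn5 and Ptprc (8.48 to 13.9). Intervals throughout are exact 95% intervals that cover counting error only. The main comparison was with the other 487 endothelial-gated cells, called other endothelial cells below, and the wider one with the other 11746 cells of the table.

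The cells came from lungs of wild-type C57BL6/J mouse pups aged 5 days, which were frozen, thawed and sorted for endothelial, epithelial and immune cells. All pups, the air group included, had been exposed on gestation day 14 to lipopolysaccharide (LPS), which bacteria carry on their surface and which provokes inflammation. After birth, pups of the Hyperoxia group (4 libraries) breathed 65% O2, a mouse model of bronchopulmonary dysplasia, and pups of the Air group (4 libraries) 21% O2. The table gave no key from cells to libraries, so every value below describes both groups together, hyperoxia was not compared with air, and no p-value is given.

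Column names did show 8 runs of barcodes, stretches within which barcodes stood in alphabetical order, and these show how far a value rests on some of the cells. Runs 1 to 8 held 2, 0, 2, 6, 23, 6, 21 and 0 arterial cells. Their share of the endothelial-gated cells was 23.0% in run 5 (15.2 to 32.5), 10.8% in run 7 (6.83 to 16.1) and 2.41% in run 1 (0.293 to 8.43). Arterial cells held 1320 to 13023 UMIs with a median of 2464.5, against medians of 2622 in other endothelial-gated cells and 4698 in the leukocyte gate, the 9005 cells with a Ptprc UMI and no Cdh5 or Cldn5 UMI. Run 6 gave 51894 of the 212259 arterial UMIs from 6 cells, so it weighs more in summed counts than its number of cells. Over all cells 12 barcodes occurred in more than 1 run, 1 of them in 6 runs, and 1 arterial cell had a barcode that also occurred in another run.

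Arteries differ from capillaries and veins in a programme that depends on Notch signalling. Notch receptors meet the ligands Dll4, Jag1 or Jag2 on neighbouring cells, and the cleaved receptor joins the DNA-binding protein RBPJ in the nucleus to raise Hey1 and Hey2, repressors that hold down venous genes. Arterial cells are coupled by gap junctions, and the wall of large arteries holds elastin laid down on a scaffold of fibrillins and fibulins.

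The 3 sequences below are promoter windows, 250 bases before to 50 after a RefSeq start site (GRCm38.p6), and show a Notch target, a chemokine and a gene of the rule. Hey2 lies on the minus strand at chr10:30842734-30843033, Cxcl12 on the plus strand at chr6:117168285-117168584 and Gja5 on the plus strand at chr3:97032152-97032451. Capitals mark the core letters known to be bound by RBPJ, TGGGAA, or TTCCCA where they read on the other strand.
Hey2: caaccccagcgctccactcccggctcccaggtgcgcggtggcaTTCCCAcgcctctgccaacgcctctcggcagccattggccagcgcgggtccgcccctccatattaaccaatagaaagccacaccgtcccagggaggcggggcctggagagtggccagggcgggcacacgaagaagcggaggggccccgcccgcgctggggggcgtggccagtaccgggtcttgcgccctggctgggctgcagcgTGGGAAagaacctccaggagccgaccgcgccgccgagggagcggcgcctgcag
Cxcl12: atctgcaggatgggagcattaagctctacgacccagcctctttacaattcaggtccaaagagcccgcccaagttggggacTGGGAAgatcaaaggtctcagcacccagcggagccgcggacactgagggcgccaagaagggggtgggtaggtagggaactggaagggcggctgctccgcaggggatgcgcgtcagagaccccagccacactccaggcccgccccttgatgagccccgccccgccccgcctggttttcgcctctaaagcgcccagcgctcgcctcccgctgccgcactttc
Gja5: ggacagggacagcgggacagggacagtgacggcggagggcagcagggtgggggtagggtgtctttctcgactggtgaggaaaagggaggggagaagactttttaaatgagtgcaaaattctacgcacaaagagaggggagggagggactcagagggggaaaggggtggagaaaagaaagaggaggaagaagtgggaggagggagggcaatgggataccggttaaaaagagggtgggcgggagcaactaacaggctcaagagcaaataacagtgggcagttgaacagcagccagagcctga
Hey2 held 2 matches, Cxcl12 held 1 and Gja5 held 0. The same letters on either strand were present in 25.6% of 32851 promoter windows of 300 bases. They were present in 4 of the 11 windows found for the 15 genes highest in arterial cells against other endothelial-gated cells (Hey2, Kcne3, Cxcl12 and Lypd6), with no entry for Mgp, Eln, Lox and Sulf1. Of the 6 Notch genes at least 2-fold higher in arterial cells, 1 of the 5 windows found held them (Hey2), with no entry for Hey1. A match describes letters in a window and is no measured binding site.

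The genes of the rule are given as a description, since they chose the cells. The sum of Gja5, Bmx and Dkk2 lay between 2 and 69 UMIs per arterial cell with a median of 5. Gja5, the gap junction protein connexin 40, was at 730.2 CPM (counts of the gene per 1000000 UMIs summed over the group) in arterial and 12.5 CPM in other endothelial-gated cells. Bmx, a tyrosine kinase, was at 711 CPM in arterial and 10.3 CPM in other endothelial cells, and Dkk2, a secreted regulator of Wnt signalling, at 466 CPM in arterial and 2.17 CPM in other endothelial cells. The run 6 cell with a sum of 69 held 35 of the 99 arterial Dkk2 UMIs and 28 of the 151 Bmx UMIs. All 3 genes had a UMI in 19 arterial cells and at least 2 of them in 47. The 13 arterial cells just inside the limit, at a sum of 2, held Eln at 6842 CPM, Mgp at 1697, Fbln5 at 2003, Cxcl12 at 2642, Efnb2 at 1113 and Sox17 at 278. Of their 246 Eln UMIs 133 came from 1 cell rich in Sftpc, described below, and 7 of the 13 cells held 0 or 1. Without that cell, left out after its values were seen, Eln was at 3845 CPM in the other 12. The 16 endothelial-gated cells just outside it, at a sum of 1, held Eln at 1578 CPM, Mgp at 345, Fbln5 at 518, Cxcl12 at 518 and Efnb2 at 395. Sox17 stood the other way, at 444 CPM in these cells. A further 4 cells passed the arterial sum but had lymphatic UMIs, 11 had a Ptprc UMI and 14 had too few Cdh5 and Cldn5 UMIs.

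The label was set against 8 arterial markers that the rule did not use, and 7 of them were at least 2-fold higher in arterial than in other endothelial-gated cells (Gja4, Hey1, Efnb2, Dll4, Cxcl12, Sema3g and Fbln5). Sox17, a transcription factor of arterial fate, was at 264 CPM in arterial and 205 CPM in other endothelial cells, a ratio of 1.29 (0.956 to 1.71). Of 36 arterial identity genes 34 passed the filter, a mean of at least 20 CPM over both groups, and 23 of these were at least 2-fold higher in arterial cells and 2 at least 2-fold lower. Over all 7213 genes that passed, 9.41% were at least 2-fold higher and 13.8% at least 2-fold lower. These are the shares to set beside each list count below against other endothelial-gated cells. The median log2 ratio was 2.05 for the arterial list and -0.10 for all genes. Members not described below include Tm4sf1, a membrane protein of endothelial cells, at 1710.2 CPM in arterial and 316 CPM in other endothelial cells, and Clu, the secreted chaperone clusterin, at 363 CPM in arterial and 36.9 CPM in other endothelial cells. The lower members were Gja1, connexin 43, at 4.71 CPM in arterial and 64.1 CPM in other endothelial cells, and Tspan8, a tetraspanin, at 4.71 CPM in arterial and 141 CPM in other endothelial cells, with 1 UMI each in the arterial cells. Since every one of these levels was measured in cells chosen by other genes of the same counts, they describe the gated cells and are no test. Gja1 had a log2 ratio of -3.77, and of -1.74 and -2.91 without runs 5 and 7. Tspan8 had a log2 ratio of -4.90, and of -2.88 without run 6. Gja4 had a log2 ratio of 2.55, and of 1.77 without run 5.

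**Figure D1:**
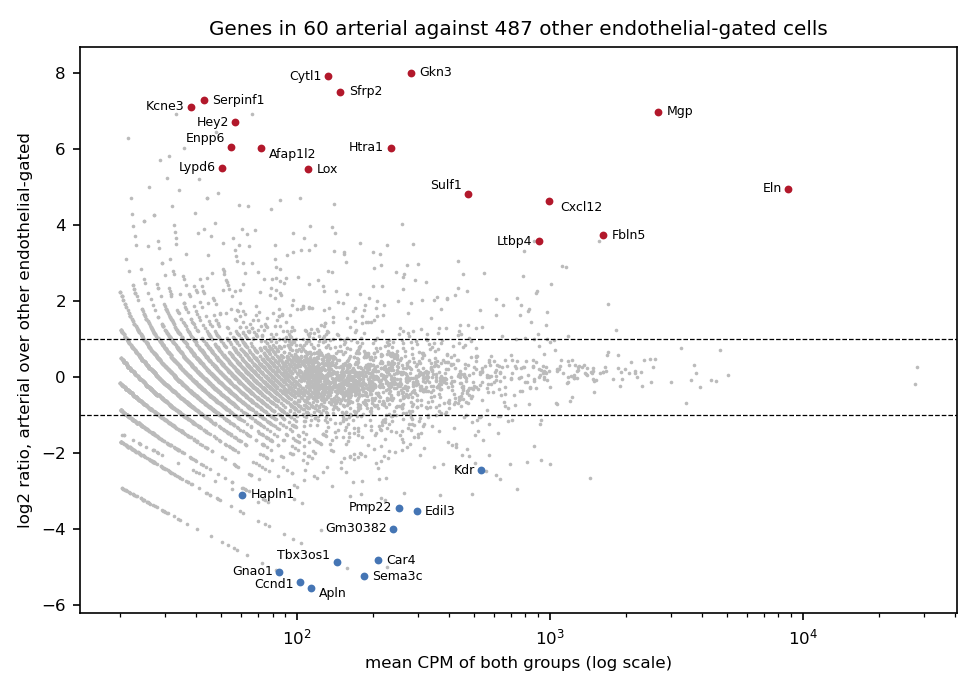
Each point is 1 of 7213 genes, with the mean CPM of both groups on the horizontal log axis and the log2 ratio of arterial over other endothelial-gated cells on the vertical axis; dashed lines mark a ratio of 2 in either direction, and a gene at 0 in a group was set to 3 counts. Eln and Mgp stand out as both abundant and high in arterial cells, with log2 ratios of 4.96 and 6.99.

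Several elastic fibre genes, Eln first among them, stood high in both level and ratio. Eln encodes tropoelastin, the soluble monomer of elastin, and lies on chromosome 5 (chr5:134702593-134747323, minus strand, GRCm38). Its level was 8963, 18064, 11523 and 25339 CPM in arterial cells of runs 4, 5, 6 and 7, against 716, 305, 894 and 449 CPM in other endothelial cells of the same runs. These are the 4 runs with at least 5 arterial cells, and every arterial value lay above every value of the other endothelial-gated cells. Summed over all runs Eln was at 16956 CPM in arterial and 547 CPM in other endothelial cells, a ratio of 31.0 (28.9 to 33.3). It had a UMI in 86.7% of arterial cells, 30.4% of other endothelial-gated cells and 0.844% of the leukocyte gate.

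Mgp, matrix Gla protein, binds bone morphogenetic proteins and limits calcification of vessel walls. Its level was 6393, 7539, 2255 and 5902 CPM in arterial cells of runs 4, 5, 6 and 7, against 105, 26.2, 107 and 17.2 CPM in other endothelial cells of the same runs. The groups did not overlap, run 6 was the low arterial run, and the summed ratio was 127 (101 to 162). Mgp had a UMI in 76.7% of arterial cells, 3.08% of other endothelial-gated cells and 0.178% of the leukocyte gate. With each cell thinned to 2000 UMIs, which left out 15 arterial cells, 157 other endothelial-gated cells and 848 cells of the leukocyte gate, these shares were 80.0%, 1.52% and 0.0736%. Mgp had a log2 ratio of 6.99, and of 7.85 without run 6.

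Several genes of proteins that assemble elastin were also higher, though not all. Fbln5, fibulin 5, which guides elastin onto microfibrils, was at 1567, 3954, 1754 and 3544 CPM in arterial cells of runs 4, 5, 6 and 7, against 315, 183, 329.7 and 225 CPM in other endothelial cells of the same runs. Its groups did not overlap, and the summed ratio was 13.3 (11.7 to 15.0). Ltbp4, which binds latent TGF-beta and takes part in elastic fibre assembly, was at 1567, 2631, 674 and 1577 CPM in arterial cells of runs 4, 5, 6 and 7, against 191, 109, 104 and 153 CPM in other endothelial cells of the same runs, again without overlap and with a ratio of 11.9 (10.1 to 14.0). Lox, the enzyme that cross-links elastin and collagen, was at 217 CPM in arterial and 4.89 CPM in other endothelial cells, a ratio of 44.4 (21.5 to 103). Fbn1, the main microfibril protein, was at 462 CPM in arterial and 70.0 CPM in other endothelial cells, and Fbln2, fibulin 2, at 1357 CPM in arterial and 215 CPM in other endothelial cells. Other elastic fibre genes lay on the lower side, with log2 ratios of -0.97 for Ltbp1, -0.74 for Loxl2, -0.28 for Mfap2 and -0.155 for Emilin1. Fbn2, given below, was at -1.27. Lox had a log2 ratio of 5.47, and of 6.40 without run 6. Ltbp1 was at -1.34 and -1.22 without runs 5 and 7, and Loxl2 at -1.16 without run 5.

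**Figure D2:**
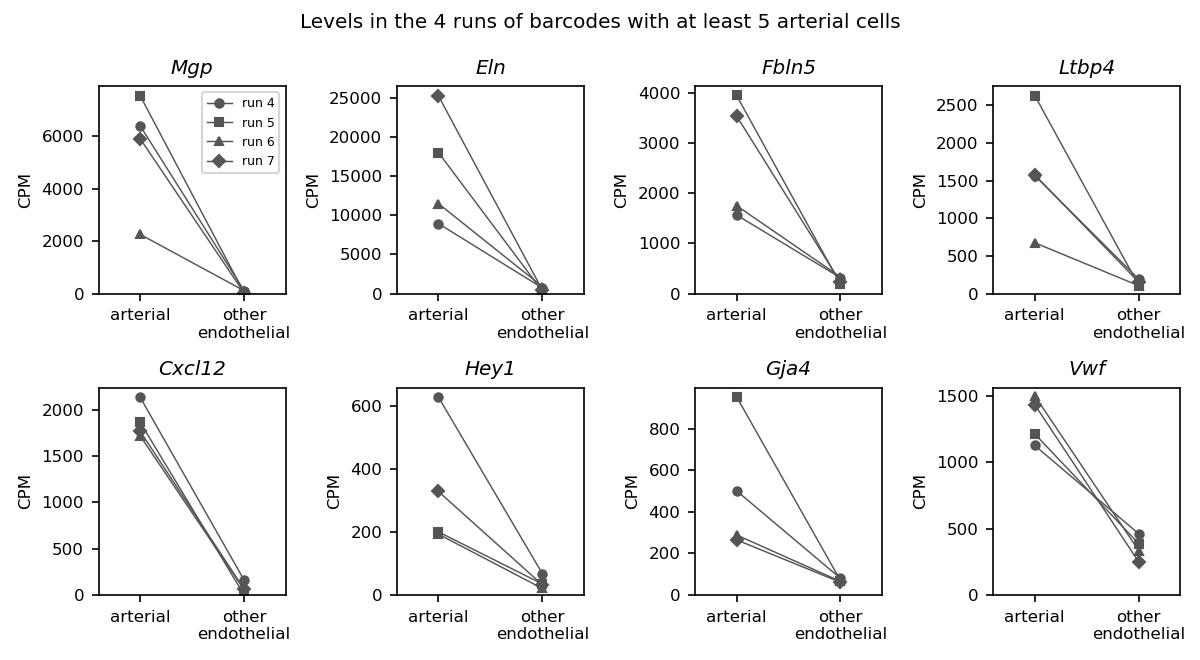
CPM of 8 genes in arterial cells (left point) and other endothelial-gated cells (right point) in the 4 runs of barcodes with at least 5 arterial cells; each line joins the values of 1 run. The arterial point is the higher one in all 4 runs for all 8 genes, which were picked for display, so this says nothing of other genes. Mgp, Ltbp4, Cxcl12 and Hey1 have their lowest arterial point in run 6.

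Of 49 elastic fibre and matrix genes, 42 passed the filter, with 23 at least 2-fold higher, 6 at least 2-fold lower and a median log2 ratio of 1.19. The list summed to 39522 CPM in arterial (38681 to 40377) and 8284 CPM in other endothelial-gated cells (8153 to 8416). Htra1, a secreted protease, was at 462 CPM in arterial and 7.06 CPM in other endothelial cells, and Sulf1, which trims heparan sulphate, at 919 CPM in arterial and 32.6 CPM in other endothelial cells. Col5a2, a chain of fibrillar collagen V, was at 1592 CPM in arterial and 134 CPM in other endothelial cells, and the proteoglycan Bgn at 773 CPM in arterial and 93.4 CPM in other endothelial cells. The lower genes were Col4a1, Col4a2, Col15a1, Nid2, Timp3 and Fbn2, of which Col4a1, Col4a2, Col15a1 and Nid2 encode proteins of the basement membrane zone. Col4a1 was at 329.8 CPM in arterial and 1512 CPM in other endothelial cells, 4.59-fold lower (3.62 to 5.90), and Col4a2 at 169.6 CPM in arterial and 1105 CPM in other endothelial cells, 6.52-fold lower (4.69 to 9.33). Nid2 had 0 UMIs in arterial cells and was at 50.5 CPM in the others, at least 3.57-fold lower with 3 counts over the arterial cells standing for 0. Htra1 had a log2 ratio of 6.03, and of 6.77 without run 6. Col4a1 had a log2 ratio of -2.20, and of -3.16 without run 6. Col4a2 had a log2 ratio of -2.70, and of -3.36 without run 6. Col15a1 had a log2 ratio of -3.24, and of -1.03 and -2.60 without runs 5 and 7. Fbn2 had a log2 ratio of -1.27, and of -0.99, -0.80 and -2.31 without runs 4, 6 and 7. Timp3 had a log2 ratio of -1.25, and of -0.998 without run 5.

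Several secreted factors outside that list had high ratios. Cxcl12, a chemokine that attracts cells bearing Cxcr4, was at 2131, 1862, 1715 and 1764 CPM in arterial cells of runs 4, 5, 6 and 7, against 160.4, 0, 56.4 and 63.0 CPM in other endothelial cells of the same runs. Its arterial values lay above all the others, and the summed ratio was 24.8 (20.4 to 30.3). Sfrp2, a secreted modulator of Wnt signalling, had 63 UMIs in 20 arterial cells and 0 in other endothelial-gated cells, so that 297 CPM in arterial cells was at least 182-fold higher with 3 counts over the other cells standing for 0. Gkn3, a gastrokine, was at 561 CPM in arterial and 2.17 CPM in other endothelial cells, and Cytl1, a secreted cytokine-like protein, at 264 CPM in arterial and 1.09 CPM in other endothelial cells. In arterial cells of runs 4, 5, 6 and 7 Gkn3 was at 439, 1154, 19.3 and 546 CPM, so run 6 was low. Igfbp4, which binds insulin-like growth factors, was at 2874 CPM in arterial and 242 CPM in other endothelial cells. Sfrp2 had a log2 bound of 7.51, and of 6.57 without run 5. Gkn3 had a log2 ratio of 8.01, and of 6.91 without run 5. Cytl1 had a log2 ratio of 7.92, and of 8.94, 8.88 and 6.54 without runs 3, 6 and 7.

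Of the Notch receptors, Notch4 was at 169.6 CPM in arterial and 84.1 CPM in other endothelial cells, a ratio of 2.02 (1.36 to 2.91), and Notch1 at 344 CPM in arterial and 226 CPM in other endothelial cells, a ratio of 1.52 (1.17 to 1.96). Notch2, another receptor, had 4 UMIs in arterial cells and was at 18.8 CPM in arterial and 33.7 CPM in other endothelial cells, a ratio of 0.560 (0.148 to 1.51), on the lower side. The ligand Jag1 was at 1128, 708, 96.3 and 624 CPM in arterial cells of runs 4, 5, 6 and 7, against 86.4, 43.6, 56.4 and 36.3 CPM in other endothelial cells of the same runs. Each arterial value lay above all values of the other endothelial-gated cells, the arterial value of run 6 only by a little, and the summed ratio was 11.3 (8.46 to 15.2). Dll4, the other arterial ligand, was at 278 CPM in arterial and 103 CPM in other endothelial cells, a ratio of 2.71 (1.99 to 3.65), and Jag2 at 51.8 CPM in arterial and 49.9 CPM in other endothelial cells, a ratio of 1.04 (0.501 to 1.94). Notch4 had a log2 ratio of 1.01, and of 0.80 and 0.75 without runs 6 and 7. Notch2 had a log2 ratio of -0.84, and of -1.74 without run 4.

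The Notch targets Hey1 and Hey2 had larger ratios than the receptors. Hey1 was at 627, 200.0, 193 and 328 CPM in arterial cells of runs 4, 5, 6 and 7, against 67.9, 34.9, 20.8 and 32.5 CPM in other endothelial cells of the same runs, without overlap, and its summed ratio was 9.85 (6.67 to 14.6). Hey2 was at 113 CPM in arterial and 1.09 CPM in other endothelial cells and had a UMI in 15 arterial cells, none of them in run 4. Nrarp, a feedback inhibitor of Notch, was at 160.2 CPM in arterial and 46.7 CPM in other endothelial cells. Hes1, a target used by many cell types, was at 608 CPM in arterial and 414 CPM in other endothelial cells, a ratio of 1.47 (1.21 to 1.77). Of 27 Notch genes, 26 of them in the table, 23 passed the filter, with 6 at least 2-fold higher, 3 at least 2-fold lower and a median log2 ratio of 0.25. The higher ones were Notch4, Dll4, Jag1, Hey1, Hey2 and Nrarp, and the lower ones Mfng, Maml3 and Numb. Numb, an inhibitor of Notch, was at 165 CPM in arterial and 456 CPM in other endothelial cells, and Maml3, a coactivator of the Notch complex, at 127 CPM in arterial and 431 CPM in other endothelial cells. Hey2 had a log2 ratio of 6.70, and of 5.62 and 5.74 without runs 5 and 7. Maml3 had a log2 ratio of -1.76, and of -2.55 without run 6. Mfng had a log2 ratio of -1.001, and of -0.93, -0.89, -0.92 and -0.99 without runs 3, 4, 6 and 8.

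Of 30 transcription factors of arterial and general endothelial identity, 23 passed the filter, with 6 at least 2-fold higher, 6 at least 2-fold lower and a median log2 ratio of 0.37. The higher ones were Sox18, Mecom, Hey1, Hey2, Foxc1 and Gata6, and the lower ones Foxf1, Ets1, Ets2, Fli1, Nr2f2 and Tbx3. Mecom, a zinc finger factor, was at 1379, 2369.5, 1888 and 2045 CPM in arterial cells of runs 4, 5, 6 and 7, against 518, 78.5, 457 and 288 CPM in other endothelial cells of the same runs. All arterial values were higher, and the ratio was 7.44 (6.53 to 8.48). Gata6, a GATA factor of the heart and vessels, was at 382 CPM in arterial and 49.4 CPM in other endothelial cells, a ratio of 7.73 (5.65 to 10.5). Foxf1, a factor of lung vessel development, was at 137 CPM in arterial and 499 CPM in other endothelial cells, 3.66-fold lower (2.53 to 5.49), and Fli1, a general endothelial ETS factor, at 184 CPM in arterial and 637 CPM in other endothelial cells. Nr2f2, which sets venous identity, was at 61.2 CPM in arterial and 126 CPM in other endothelial cells, and 69.2% of its arterial UMIs came from 1 cell. Nr2f2 had a log2 ratio of -1.04, and of -0.97, -0.98, -0.67, -2.35 and -0.81 without runs 1, 3, 5, 6 and 7. Sox18 had a log2 ratio of 1.15, and of 0.99 without run 7. Tbx3 had a log2 ratio of -2.42, and of -4.20 without run 6.

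Guidance and growth factor genes differed in direction. Of 50 such genes, 39 passed the filter, with 13 at least 2-fold higher, 9 at least 2-fold lower and a median log2 ratio of 0.27. Efnb2, the ephrin that marks arteries, was at 940.2, 1339, 964 and 1389.5 CPM in arterial cells of runs 4, 5, 6 and 7, against 284, 183, 282 and 323 CPM in other endothelial cells of the same runs. The groups did not overlap, and the ratio was 4.18 (3.59 to 4.87). Its venous receptor Ephb4 was at 146 CPM in arterial and 196 CPM in other endothelial cells, a ratio of 0.743 (0.498 to 1.07). Sema3g, an arterial semaphorin, was at 292 CPM in arterial and 64.1 CPM in other endothelial cells, and the semaphorin receptor Plxnd1 at 579 CPM in arterial and 136 CPM in other endothelial cells.

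The receptor Kdr, through which VEGF acts on endothelium, was at 125, 92.3, 212 and 249.8 CPM in arterial cells of runs 4, 5, 6 and 7, against 845, 758, 823 and 1107 CPM in other endothelial cells of the same runs. All arterial values lay below all others, and Kdr was 5.49-fold lower (3.93 to 7.91). Its ligand Vegfa was at 311 CPM in arterial and 73.3 CPM in other endothelial cells, which is higher in arterial cells. Sema3c, another semaphorin, had 2 UMIs in 1 arterial cell and was at 9.42 CPM in arterial and 358 CPM in other endothelial cells, 38.0-fold lower (10.5 to 315). Sema6a, a membrane semaphorin, was at 221 CPM in arterial and 927 CPM in other endothelial cells. Sema3c had a log2 ratio of -5.25, and of -4.22 without run 6.

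Of 21 gap junction and ion channel genes, 10 passed the filter, with 3 at least 2-fold higher, 4 at least 2-fold lower and a median log2 ratio of -0.78. Gja4, connexin 37, was at 501, 954, 289 and 265 CPM in arterial cells of runs 4, 5, 6 and 7, against 80.2, 69.7, 65.3 and 61.1 CPM in other endothelial cells of the same runs. Each arterial value lay above all the others, with run 5 the highest, and the ratio was 5.86 (4.54 to 7.54). Kcne3, a potassium channel subunit, was at 75.4 CPM in arterial and 0.543 CPM in other endothelial cells, with UMIs in 13 arterial cells. Piezo2, a mechanically gated channel, was at 104 CPM in arterial and 882 CPM in other endothelial cells, 8.51-fold lower (5.60 to 13.6). Kcne3 had a log2 ratio of 7.12, and of 5.21 without run 4. Piezo2 had a log2 ratio of -3.09, and of -4.05 without run 6.

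Of 29 vascular tone genes, 21 passed the filter, with 5 at least 2-fold higher, 5 at least 2-fold lower and a median log2 ratio of -0.02. Edn1, which encodes the vasoconstrictor endothelin 1, was at 313, 1046, 289 and 328 CPM in arterial cells of runs 4, 5, 6 and 7, against 278, 118, 154 and 172 CPM in other endothelial cells of the same runs. Run 5 held the highest arterial value, and the summed ratio was 4.03 (3.21 to 5.04). Nos3, endothelial nitric oxide synthase, was at 174 CPM in arterial and 49.4 CPM in other endothelial cells, a ratio of 3.53 (2.34 to 5.22). Nostrin, which binds that enzyme, was at 61.2 CPM in arterial and 263 CPM in other endothelial cells, 4.30-fold lower (2.49 to 8.13). Ace, which makes angiotensin II, was at 594 CPM in arterial and 276 CPM in other endothelial cells, and the endothelin receptor Ednrb at 236 CPM in arterial and 358 CPM in other endothelial cells, a ratio of 0.658 (0.483 to 0.877). Edn1 had a log2 ratio of 2.01, and of 1.27 without run 5. Nostrin had a log2 ratio of -2.10, and of -2.72 without run 6.

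Of 24 shear stress genes, 21 passed the filter, with 4 at least 2-fold higher, 2 at least 2-fold lower and a median log2 ratio of 0.08. Klf2, a factor raised by laminar flow, was at 1145 CPM in arterial and 579 CPM in other endothelial cells, a ratio of 1.98 (1.71 to 2.28), and Klf4 at 325 CPM in arterial and 409 CPM in other endothelial cells, a ratio of 0.795 (0.612 to 1.02). Of 34 BMP and TGF-beta genes, 22 passed the filter, with 7 at least 2-fold higher, 3 at least 2-fold lower and a median log2 ratio of 0.58. Fstl1, a secreted follistatin-like protein, was at 1469.9 CPM in arterial and 307 CPM in other endothelial cells, a ratio of 4.78 (4.15 to 5.50). The ligand Bmp4 was at 165 CPM in arterial and 45.6 CPM in other endothelial cells, and Id3, a target of BMP signalling, at 1263 CPM in arterial and 381 CPM in other endothelial cells. Bmpr2, whose human counterpart is mutated in heritable pulmonary arterial hypertension, was at 754 CPM in arterial and 915 CPM in other endothelial cells, a ratio of 0.824 (0.696 to 0.969). Tgfbr2, a TGF-beta receptor, was at 56.5 CPM in arterial and 216 CPM in other endothelial cells, 3.82-fold lower (2.16 to 7.46). Klf2 had a log2 ratio of 0.98, and of 1.12 and 1.18 without runs 1 and 6.

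Vwf, the clotting protein stored in endothelial granules, was at 1128, 1216, 1503 and 1436 CPM in arterial cells of runs 4, 5, 6 and 7, against 463, 388, 336 and 250.1 CPM in other endothelial cells of the same runs. The groups did not overlap, and the ratio was 4.65 (4.03 to 5.35). Plat, tissue plasminogen activator, was at 415 CPM in arterial and 37.5 CPM in other endothelial cells, with 37.5% of its arterial UMIs in 1 cell. Thbd, the anticoagulant receptor thrombomodulin, was at 84.8 CPM in arterial and 358 CPM in other endothelial cells, 4.22-fold lower (2.65 to 7.17). Of 20 coagulation genes, 13 passed the filter, with 2 at least 2-fold higher, 5 at least 2-fold lower and a median log2 ratio of -0.51.

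Markers of Car4 capillary cells, which lie against the alveolar epithelium, were mostly lower. Of 17 such genes, 16 passed the filter, with 1 at least 2-fold higher, 13 at least 2-fold lower and a median log2 ratio of -2.48. Car4, a carbonic anhydrase, had 3 UMIs in 2 arterial cells and was at 14.1 CPM in arterial and 404 CPM in other endothelial cells, 28.6-fold lower (9.75 to 139). Apln, the ligand apelin, had 1 UMI and was at 4.71 CPM in arterial and 221 CPM in other endothelial cells, 47.0-fold lower (8.39 to 1861). Kitl, the ligand of Kit, was at 339 CPM in arterial and 1664 CPM in other endothelial cells, 4.91-fold lower (3.88 to 6.29), and Tbx2, a T-box factor, at 14.1 CPM in arterial and 234 CPM in other endothelial cells. The higher member was Ptprb, an endothelial phosphatase, at 2572 CPM in arterial and 1091 CPM in other endothelial cells. Car4 had a log2 ratio of -4.84, and of -4.25 and -6.08 without runs 5 and 6. Apln had a log2 ratio of -5.55, and of -4.96, -3.63 and -4.89 without runs 5, 6 and 7. Tbx2 had a log2 ratio of -4.05, and of -5.28 without run 6. Ptprb had a log2 ratio of 1.24, and of 0.99 without run 6. The numbers of higher and lower genes in the Car4 capillary list were 0 and 13 without run 6.

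Of 14 general capillary genes, 12 passed the filter, with 0 at least 2-fold higher, 7 at least 2-fold lower and a median log2 ratio of -1.34. Gpihbp1, which anchors lipoprotein lipase, was at 70.7 CPM in arterial and 300.2 CPM in other endothelial cells, 4.25-fold lower (2.55 to 7.64), and Aplnr, the apelin receptor, at 37.7 CPM in arterial and 174 CPM in other endothelial cells, 4.61-fold lower (2.31 to 10.8). Hmcn1, a matrix protein, lay at the limit on the higher side, at 1300.3 CPM in arterial and 650.3 CPM in other endothelial cells. Of 12 lymphatic genes, 2 of them used by the rule, 7 passed the filter, with 0 at least 2-fold higher, 6 at least 2-fold lower and a median log2 ratio of -2.55. Ccl21a, a lymphatic chemokine, had 0 UMIs in arterial cells and was at 454 CPM in the others, at least 32.1-fold lower. The rule had taken cells with Mmrn1 or Prox1 UMIs out of the arterial group, so the lymphatic values are a description. Gpihbp1 had a log2 ratio of -2.09, and of -3.20 without run 6. Aplnr had a log2 ratio of -2.20, and of -2.92 without run 6. Hmcn1 had a log2 ratio of 1.00, and of 1.27, 1.07, 1.12 and 1.02 without runs 1, 5, 7 and 8. Ccl21a had a log2 bound of -5.00, and of -3.61 without run 7. In the general capillary list the higher and lower genes numbered 1 and 7 without run 1, 1 and 6 without run 5, 1 and 7 without run 7 and 1 and 7 without run 8.

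Venous genes were not uniformly low. Of 16 such genes, 11 passed the filter, with 5 at least 2-fold higher, 3 at least 2-fold lower and a median log2 ratio of 0.51. Over the same genes that median was 0.09 without run 7. Vwf, Vcam1, Selp, Cpe and Amigo2 were the higher ones, and Nr2f2, Nrp2 and Prss23 the lower. Cpe, a peptide-processing enzyme, was at 236 CPM in arterial and 48.9 CPM in other endothelial cells, with UMIs in 25 arterial cells. Vcam1, a leukocyte adhesion molecule, was at 113 CPM in arterial and 4.89 CPM in other endothelial cells, with UMIs in 8 arterial cells, and Selp, P-selectin, at 151 CPM in arterial and 21.2 CPM in other endothelial cells, also with UMIs in 8 arterial cells. Of 27 adhesion and chemokine genes, 17 passed the filter, with 6 at least 2-fold higher, 0 at least 2-fold lower and a median log2 ratio of 0.74. The pan-endothelial gene Pecam1 was at 1117 CPM in arterial and 1009 CPM in other endothelial cells, a ratio of 1.11 (0.963 to 1.27). Selp had a log2 ratio of 2.83, and of 3.52 and 1.94 without runs 1 and 5. Amigo2 had a log2 ratio of 1.12, and of 0.93 and 0.09 without runs 4 and 7. Nrp2 had a log2 ratio of -3.89, and of -2.87 without run 6. Prss23 had a log2 ratio of -1.79, and of -4.06 without run 6. In the leukocyte adhesion and chemokines list the higher and lower genes numbered 5 and 1 without run 1 and 4 and 1 without run 5.

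**Figure D3:**
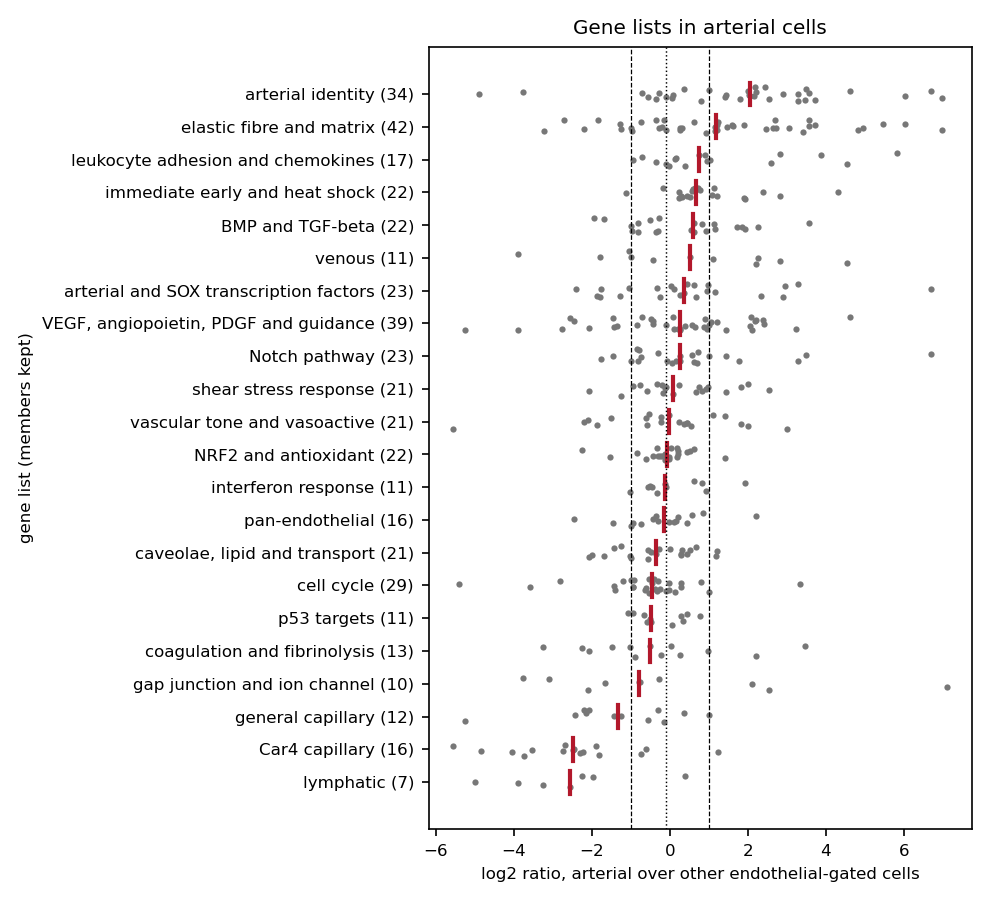
Each grey point is 1 list member that passed the filter, placed by its log2 ratio of arterial over other endothelial-gated cells, and the red bar is the median of the list; the dotted line is the median of all 7213 genes (-0.10) and the dashed lines mark a ratio of 2 in either direction. The arterial list (2.05) and the elastic fibre list (1.19) have the highest medians of the 22 lists, and the Car4 capillary (-2.48) and lymphatic (-2.55) lists the lowest.

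Of 23 immediate early and heat shock genes, 22 passed the filter, with 8 at least 2-fold higher, 1 at least 2-fold lower and a median log2 ratio of 0.66. Fos, a subunit of the AP-1 factor, was at 4638, 3724, 1329.6 and 2108 CPM in arterial cells of runs 4, 5, 6 and 7, against 913, 579.7, 805 and 643 CPM in other endothelial cells of the same runs. All arterial values were higher, with a ratio of 3.77 (3.41 to 4.16), and Fos was at 1517 CPM in the leukocyte gate. Of 31 NRF2 and antioxidant genes, 22 passed the filter, with 1 at least 2-fold higher, 2 at least 2-fold lower and a median log2 ratio of -0.07. Mt1, a metallothionein and the higher member, was at 188 CPM in arterial and 70.6 CPM in other endothelial cells, with UMIs in 4 arterial cells, and at 53.5 CPM in arterial cells without a single cell described below. Mt1 had a log2 ratio of 1.42, and of 2.01 and 0.72 without runs 5 and 7. In the immediate early and heat shock list the higher and lower genes numbered 8 and 2 without run 4 and 7 and 0 without run 6. In the NRF2 and antioxidant list the higher and lower genes numbered 1 and 1 without run 6 and 0 and 1 without run 7.

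Of 38 cell cycle genes, 29 passed the filter, with 2 at least 2-fold higher, 6 at least 2-fold lower and a median log2 ratio of -0.45. Over all 7213 genes 9.41% were at least 2-fold higher and 13.8% at least 2-fold lower. Mki67, a proliferation marker, had a UMI in 2 arterial cells. Cdkn1c, an inhibitor of cell division, was at 203 CPM in arterial and 20.1 CPM in other endothelial cells, a ratio of 10.1 (6.35 to 16.1). Ccnd1, cyclin D1, had 1 UMI in arterial cells and was at 4.71 CPM in arterial and 200.3 CPM in other endothelial cells, 42.5-fold lower (7.58 to 1684). Of 27 caveolar, lipid and transport genes, 21 passed the filter, with 2 at least 2-fold higher, 7 at least 2-fold lower and a median log2 ratio of -0.37. Cd36, a fatty acid transporter, was at 283 CPM in arterial and 759 CPM in other endothelial cells, 2.68-fold lower (2.07 to 3.54). The 11 p53 targets and 11 interferon genes that passed had median log2 ratios of -0.47 and -0.12. Cdkn1c had a log2 ratio of 3.33, and of 2.50 without run 5. Ccnd1 had a log2 ratio of -5.41, and of -4.79, -3.58 and -4.71 without runs 5, 6 and 7. Cd36 had a log2 ratio of -1.43, and of -2.39 without run 6. Mki67 had a log2 ratio of -0.41, and of -2.74 without run 7. In the cell cycle list the higher and lower genes numbered 2 and 10 without run 1, 1 and 6 without run 3 and 1 and 6 without run 4. In the caveolae, lipid and transport list the higher and lower genes numbered 1 and 7 without run 3 and 1 and 6 without run 4.

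Further genes stood among the 15 highest or 10 lowest against other endothelial cells without belonging to a list above. Serpinf1, an inhibitor of vessel growth, was at 84.8 CPM in arterial and 0.543 CPM in other endothelial cells, and Afap1l2, an adaptor that binds actin filaments, at 141 CPM in arterial and 2.17 CPM in other endothelial cells. Enpp6, a choline phosphodiesterase, was at 108 CPM in arterial and 1.63 CPM in other endothelial cells, and Lypd6, a regulator of Wnt signalling, at 98.9 CPM in arterial and 2.17 CPM in other endothelial cells. These 4 genes had UMIs in 15, 20, 17 and 13 of the 60 arterial cells. Among the low genes, Edil3, a matrix protein that binds integrins, was at 47.1 CPM in arterial and 548 CPM in other endothelial cells, 11.6-fold lower (6.30 to 24.3), and Pmp22, a membrane protein, at 42.4 CPM in arterial and 463 CPM in other endothelial cells, 10.9-fold lower (5.73 to 24.0). Hapln1, a link protein of hyaluronan, had 0 UMIs in arterial cells and was at 122 CPM in other endothelial cells, at least 8.60-fold lower. Gm30382 was at 28.3 CPM in arterial and 453 CPM in other endothelial cells, and Tbx3os1, named as an opposite-strand transcript of Tbx3, at 9.42 CPM in arterial and 277 CPM in other endothelial cells. The counting is not stated to use strand, so Tbx3os1 and Tbx3 may share UMIs. The set also held Gnao1, a G protein subunit, with 1 UMI in arterial cells, at 4.71 CPM in arterial and 165 CPM in other endothelial cells. Serpinf1 had a log2 ratio of 7.29, and of 5.51 and 6.61 without runs 4 and 7. Enpp6 had a log2 ratio of 6.06, and of 5.03 without run 7. Lypd6 had a log2 ratio of 5.51, and of 4.62 without run 5. Edil3 had a log2 ratio of -3.54, and of -4.43 without run 7. Hapln1 had a log2 bound of -3.10, and of -2.41 without run 6. Gm30382 had a log2 ratio of -4.00, and of -5.19 without run 6. Tbx3os1 had a log2 ratio of -4.88, and of -4.29 and -3.76 without runs 6 and 7. Gnao1 had a log2 ratio of -5.13, and of -3.10 without run 7.

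The other endothelial-gated cells were split by UMIs into 138 with a sum of at least 3 over Car4, Ednrb, Fibin and Apln (Car4 capillary gate), 209 with a sum of at least 2 over Gpihbp1, Aplnr, Kit and Hpgd (general capillary gate), 73 with lymphatic UMIs and 67 remaining cells. Eln was at 16956 CPM in arterial cells, against 208 CPM in the Car4 capillary gate, 604 CPM in the general capillary gate, 362 CPM in the lymphatic-count cells and 1752 CPM in the remaining cells. Mgp was at 5305 CPM in arterial cells, against 4.01, 12.0, 78.6 and 238 CPM in the same order. Mecom was at 2040 CPM in arterial and 902 CPM in remaining cells, and Vwf at 1451 CPM in arterial and 734 CPM in remaining cells, so for these 4 genes the remaining cells stood nearest to the arterial cells. The remaining cells are those that no gate took, not a marked cell type, and may include cells just under the arterial limit. Their median depth, 1905 UMIs, was the lowest of these groups, and they held Sftpc at 10752 CPM. Kdr was at 165 CPM in arterial cells, against 1974 CPM in the Car4 capillary gate and 414 CPM in the general capillary gate. Sox17 was at 264 CPM in arterial cells, against 272 CPM in the general capillary gate.

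**Figure D4:**
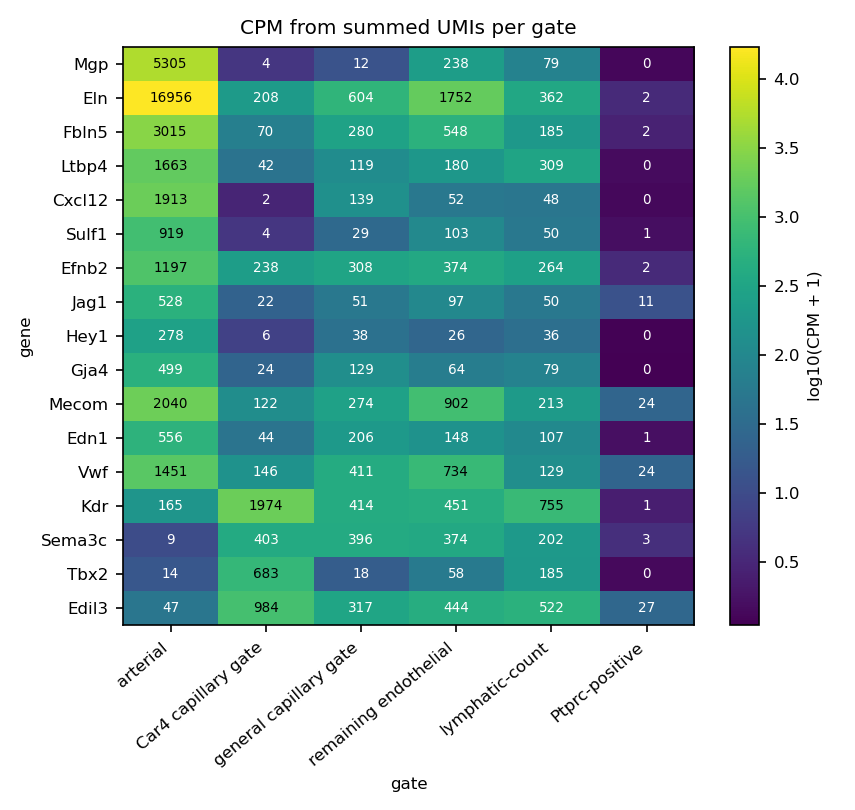
Rows are 17 genes and columns are the arterial cells, 4 subsets of the other endothelial-gated cells and the leukocyte gate (Ptprc-positive), with CPM from summed UMIs printed in each field and colour on a log10(CPM + 1) scale. The arterial column is the highest of its row for the upper 13 genes, and the lowest of the 5 endothelial columns for Kdr, Sema3c, Tbx2 and Edil3.

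Arterial cells varied among themselves. Eln lay between 0 and 133800 CPM per cell with a median of 16400, Mgp between 0 and 20790 with a median of 4083, and Efnb2 between 0 and 3425 with a median of 1167. Across the 60 cells Eln went with Mgp (Spearman 0.758), Ltbp4 (0.662), Htra1 (0.615), Fbln5 (0.615) and Vwf (0.518). For Mgp the value was 0.613 in the 23 cells of run 5 and 0.888 in the 21 cells of run 7. Eln stood in little relation to Hey1 (0.0257) and Gja4 (0.101), and was inverse to Cxcl12 (-0.362) and Bmpr2 (-0.581, with -0.316 in run 5 and -0.796 in run 7). These values are descriptions over cells that share runs, at few UMIs per gene, and the CPM values of a cell share its total.

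Arterial cells with 0 to 3 Eln UMIs were set beside the rest, at a limit chosen after the counts were seen and with no test. There were 14 of them, 8 with 0 Eln UMIs, from runs 1, 4, 5, 6 and 7 (1, 1, 5, 2 and 5 cells), and of the other 46 cells, called Eln-high here, 6 had 4 to 10 and 40 over 10. Median depth was 2417.5 UMIs in Eln-low and 2491 UMIs in Eln-high cells. Of the 13 arterial cells at the limit of the rule, a sum of 2, 7 held 0 or 1 Eln UMIs and so were Eln-low. Cells at that limit thus make up a larger part of the Eln-low than of the Eln-high cells. Their part in the values below was not tested. The 2 Eln-low cells of run 6 held 13023 and 12210 UMIs, so each weighs more in summed Eln-low values than any other Eln-low cell. Mgp was at 93.8 CPM in Eln-low and 7053 CPM in Eln-high cells, and as a mean over cells at 242 and 7683 CPM. Fbln5 was at 694 CPM in Eln-low and 3794 CPM in Eln-high cells. Vwf was at 356 CPM in Eln-low and 1818 CPM in Eln-high cells. Dkk2, a gene of the rule, was at 56.3 CPM in Eln-low and 604 CPM in Eln-high cells, and at 107 and 446 CPM without run 6. Cxcl12 was higher in Eln-low cells, at 4032 CPM in Eln-low and 1202 CPM in Eln-high cells, as was Bmpr2 at 2044 CPM in Eln-low and 321 CPM in Eln-high cells. Cd36, the fatty acid transporter, was at 1069 CPM in Eln-low and 18.9 CPM in Eln-high cells, the VEGF receptor Kdr at 469 CPM in Eln-low and 62.9 CPM in Eln-high cells and Gpihbp1, a general capillary gene, at 225 CPM in Eln-low and 18.9 CPM in Eln-high cells, all 3 higher in Eln-low cells. Without run 6 Cxcl12 was at 4736 CPM in Eln-low and 1391 CPM in Eln-high cells, Bmpr2 at 1745 CPM in Eln-low and 287 CPM in Eln-high cells, Cd36 at 783 CPM in Eln-low and 22.7 CPM in Eln-high cells, Kdr at 534 CPM in Eln-low and 68.0 CPM in Eln-high cells and Gpihbp1 at 214 CPM in Eln-low and 0 CPM in Eln-high cells. This last Eln-low value rests mostly on 1 cell of run 5, which held 5 Gpihbp1 UMIs. The arterial genes Efnb2 (1313 CPM in Eln-low and 1158 CPM in Eln-high cells), Hey1 (244 CPM in Eln-low and 289 CPM in Eln-high cells), Dll4 (319 CPM in Eln-low and 264 CPM in Eln-high cells) and Gja4 (375 CPM in Eln-low and 541 CPM in Eln-high cells) had ratios whose intervals included 1. Other arterial genes differed beyond counting error and in both directions. Sox17 was higher in Eln-low cells, at 469 CPM in Eln-low and 195 CPM in Eln-high cells, a ratio of 2.40 (1.36 to 4.21). Mecom was lower, at 1407 CPM in Eln-low and 2252 CPM in Eln-high cells, a ratio of 0.625 (0.480 to 0.803). Bmx, a gene of the rule, was also lower, at 375 CPM in Eln-low and 824 CPM in Eln-high cells, a ratio of 0.455 (0.269 to 0.732). Eln-high cells of run 6 held 28 and 15 of the Bmx UMIs, so this ratio leans on that run beyond its interval. The rule gene Gja5 was at 619 CPM in Eln-low and 768 CPM in Eln-high cells, a ratio of 0.806 (0.531 to 1.19).

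**Figure D5:**
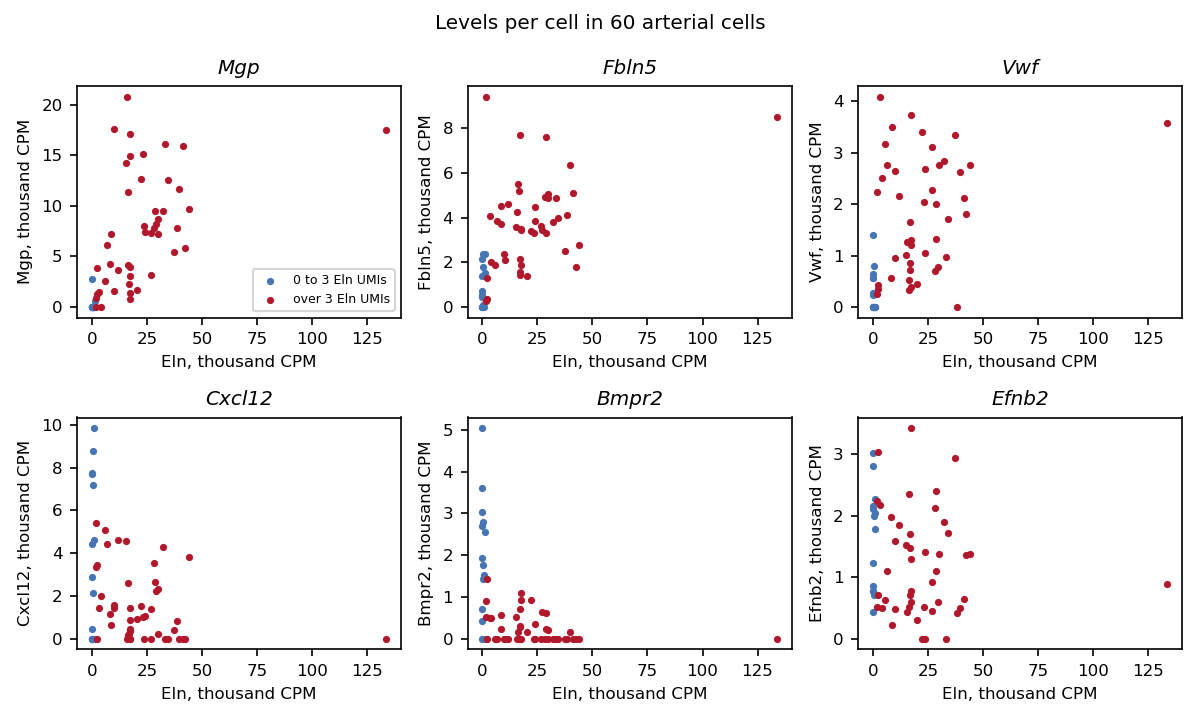
Each point is 1 of 60 arterial cells, with its Eln level on the horizontal axis and the level of another gene on the vertical axis, both in units of 1000 CPM; blue marks the 14 cells with 0 to 3 Eln UMIs and red the other 46. In sum Mgp, Fbln5 and Vwf were lower in the blue cells and Cxcl12 and Bmpr2 higher, with Efnb2 at 1313 CPM in the blue and 1158 CPM in the red cells.

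The arterial cells were also split by each gene of the rule, and Eln and Cxcl12 differed in how they stood under the 3 splits. A Dkk2 UMI was present in 32 cells and not in 28, at median depths of 2402.5 and 2651 UMIs. Eln was at 24194 CPM with and 10887 CPM without a Dkk2 UMI, a ratio of 2.22 (2.07 to 2.38), and Cxcl12 at 1023 CPM with and 2659 CPM without a Dkk2 UMI, a ratio of 0.385 (0.303 to 0.484). This split overlaps with that by Eln, since a Dkk2 UMI was present in 2 of the 14 Eln-low and 30 of the 46 Eln-high cells, so it adds no separate evidence. Bmx had a UMI in 47 cells and none in 13. Eln was at 17968 CPM with and 11858 CPM without a Bmx UMI, a ratio of 1.52 (1.37 to 1.68), and Cxcl12 at 1875 CPM with and 2104 CPM without a Bmx UMI, a ratio of 0.891 (0.691 to 1.16), whose interval included 1. Gja5 likewise had a UMI in 47 cells and none in 13. Eln was at 17171 CPM with and 15888 CPM without a Gja5 UMI, a ratio of 1.08 (0.988 to 1.18), and Cxcl12 at 2032 CPM with and 1319 CPM without a Gja5 UMI, a ratio of 1.54 (1.13 to 2.14). In summed counts Cxcl12 was thus lower in cells with a Dkk2 UMI. Its difference in the Gja5 split rests on run 6, which the interval does not cover, so no direction is read from it. Run 6 cells of 12210 and 13023 UMIs, both with a Gja5 UMI, held 54 and 28 Cxcl12 UMIs. The run 6 cell of 10958 UMIs, with no Gja5 UMI, held 0.

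Against all other cells of the table, 9005 of which were in the leukocyte gate, 23.7% of 7300 genes were at least 2-fold higher in arterial cells and 18.8% at least 2-fold lower, with a median log2 ratio of 0.12. Mgp was at 5305 CPM in arterial and 2.76 CPM in all other cells, Gkn3 at 561 CPM in arterial and 0.469 CPM in all other cells, Cytl1 at 264 CPM in arterial and 0.273 CPM in all other cells and Sfrp2 at 297 CPM in arterial and 0.312 CPM in all other cells. Eln was at 16956 CPM in arterial and 34.0 CPM in all other cells, a ratio of 498 (474 to 524), and Cxcl12 at 1913 CPM in arterial and 4.04 CPM in all other cells, a ratio of 474 (408 to 551). Of the elastic fibre and matrix genes 34 of 39 kept here were at least 2-fold higher and 2 at least 2-fold lower. Kdr, which was lower than in other endothelial-gated cells, was higher than in all other cells, at 165 CPM in arterial and 25.9 CPM in all other cells. NRF2 and antioxidant genes ran the other way, with 2 of 25 at least 2-fold higher, 16 at least 2-fold lower and a median log2 ratio of -1.35.

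Markers of other cell types were counted in the arterial cells, and their part in the results was not tested. The 14 smooth muscle and pericyte genes summed to 217 CPM in arterial and 70.6 CPM in other endothelial-gated cells, with a UMI in 15 arterial cells and Cnn1, Des, Cspg4, Rgs5, Higd1b and Lmod1 at 0. Only 2 of these 15 cells held at least 3 such UMIs, and 1 cell held 25. Acta2 and Tagln were the 2 that passed the filter, and both were higher, at log2 ratios of 3.65 and 3.82. With an arterial sum of at least 3 these ratios were 1.24 and 0.83. The 12 fibroblast genes summed to 1079 CPM in arterial and 159.6 CPM in other endothelial cells, of which Fn1, fibronectin, which endothelial cells also make, gave 782 CPM in arterial and 120.0 CPM in other endothelial cells, and Pdgfra, Dcn, Lum, Tcf21, Col13a1 and Mfap4 were at 0. Of the 4 fibroblast genes that passed the filter, Col1a2, Col3a1 and Fn1 were at least 2-fold higher, with Col1a2 at a log2 ratio of 6.02. Col3a1, a fibrillar collagen, was at 132 CPM in arterial and 1.09 CPM in other endothelial cells, with UMIs in 5 arterial cells, with 57.1% of its UMIs in 1 of them. The 14 leukocyte genes summed to 165 CPM in arterial and 420.1 CPM in other endothelial cells, the 7 erythroid genes had 0 UMIs in arterial cells, and the 6 platelet genes summed to 9.42 CPM in arterial and 13.0 CPM in other endothelial cells. The 15 epithelial genes summed to 6529.8 CPM in arterial and 4450.1 CPM in other endothelial cells, with Epcam and Foxj1 at 0. Of the 10 that passed the filter, Ager, Nkx2-1 and Krt18 were at least 2-fold higher and 4 at least 2-fold lower. A single cell of run 7 held 1218 of its 6563 UMIs as Sftpc, a surfactant protein of alveolar type 2 cells. Without that cell arterial Sftpc was at 117 CPM, Eln at 16850 and Mgp at 5421. In summed CPM, fewer cells with a transcript and fewer transcripts per cell cannot be told apart. Col3a1 had a log2 ratio of 6.92, and of 7.58 and 5.82 without runs 1 and 6. Acta2 was at 2.10 without run 4, and Col1a2 at 5.09 and 4.15 without runs 1 and 7. Ager had a log2 ratio of 1.86, and of 0.94 without run 4. Nkx2-1 had a log2 ratio of 1.00, and of 0.39, 0.955, 0.83, 2.23 and 0.066 without runs 1, 2, 4, 6 and 7. Krt18 had a log2 ratio of 1.31, and of 0.96, 3.45 and 0.59 without runs 1, 5 and 7. Sftpc had a log2 ratio of 0.72, and of 1.05, 1.10 and -3.85 without runs 5, 6 and 7.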

How the data were processed

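The deposited table held raw UMI counts of 32285 genes in 11806 cells (77020720 UMIs), made by the authors from droplet 3' libraries, per the labels' protocols. Per the submitters' processing notes, Cell Ranger 1.3.1 and the mm10 build were used, with settings that the sources at hand do not state. The table held only cells with at least 800 genes and at most 9.99% mitochondrial UMIs. None of the 8 library labels matched a column (0 matches), so all cells were treated as 1 pooled sample and the comparison of hyperoxia with air was not made. Cells are not replicates, so no test was run.

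Counts were summed per group and scaled to CPM. Ratios carry exact conditional 95% intervals (Clopper-Pearson, scipy 1.17.1), which cover counting error only, and the runs of barcodes show a further spread. Genes with a mean of at least 20 CPM over both groups were kept, the 8 genes of the rule were left out, and a gene counted as higher or lower at a ratio of at least 2. A group at 0 was set to 3 counts. Where leaving out a run of barcodes moved a gene described as higher or lower over 1.5-fold, or took a described gene across the 2-fold limit, the log2 ratio without it is given once. Doublets were scored per run with Scrublet (scanpy 1.11.5). Its automatic threshold marked 56 cells (0.474%) and was not used. An alternative removed the 193 cells with the highest scores, at 0.8% per 1000 cells, 1 of them arterial. The ratio step was tested on simulated data (Python 3.11.15, numpy 2.4.6, pandas 2.3.3).

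Members and lists were chosen with earlier results of these data known. Genes were named by rule: the 15 with the highest lower bound and the 10 with the lowest upper bound of the ratio to other endothelial-gated cells, among genes with a UMI in at least 20% of the cells of the higher group, the 8 highest against all other cells, and up to 4 per list with its defining members. Other list members, and Igfbp4, were chosen after their values were seen. Promoter windows come from RefSeq (GRCm38.p6) and gene positions from the GENCODE annotation of GRCm38.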

Additional observations from a re-analysis of the deposited data

How the results depend on the processing

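The number of arterial cells lay between 37 and 60 and their share of endothelial-gated cells between 8.28% and 12.5% when each run of barcodes was left out in turn, with 37 cells (8.28%) without run 5 and 39 cells without run 7. Against other endothelial-gated cells, 1359 genes were at least 2-fold higher and 1770 lower with a filter of 5 CPM, and 318 and 481 with a filter of 50 CPM, against 679 and 997 at 20 CPM. With every cell thinned to 2000 UMIs, 1056 genes were higher. Against all other cells 2876 genes were higher at 5 CPM, and at 50 CPM 921 were higher and 716 lower. Fewer or more genes pass these filters, which changes the counts by construction. Leaving out a run gave 663 to 768 higher and 985 to 1188 lower genes against other endothelial-gated cells.

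Of 2292 recomputed ratios of 121 named genes, 2148 kept their value within counting error, 135 moved and 9 reversed. The log2 ratio of Mt1 was -2.98 with an arterial sum of at least 3 and -0.40 without the cell rich in Sftpc, and Ager was at -2.85 with an arterial sum of at least 3. Krt8 lay between -2.23 and 2.13 when each run was left out, with 2.13 without run 5, and was at 0.81 as a mean over cells and 0.55 after thinning. Maf was at 0.40 against cells with no UMIs of the rule's genes. Without cells of at least 3 Dppa5a, Sftpc or Lyz2 UMIs, an alternative chosen after seeing the data, Gclc was at 0.22 and Sftpb at 1.68. The causes were not tested. Of 352 list medians recomputed, 346 stayed within the limit used, 6 moved and 0 reversed.

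No paired analysis was possible because the cells could not be assigned to libraries. Few arterial cells and UMIs limit all values, and a gene with 1 to 3 arterial UMIs has a wide interval.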
